A study of Mus musculus with 8 samples.

Results

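Liver mRNA was examined for 48 genes that encode the NRF2 pathway, the enzymes that make and recycle glutathione, the glutathione transferases and the enzymes that remove peroxides, superoxide, epoxides and carbonyls. The genes were listed by symbol for what their products do, and the transcripts of each gene were summed, which gave 48 of 35975 genes and 222 of 119414 transcripts. All mice were of the C57BL/6 strain (C57BL/6J in the methods) and carried a catheter in the portal vein, the vessel that brings blood from the gut to the liver, fed by an implanted osmotic pump for 2 weeks. The control group received normal saline (n = 4) and the other group received 4-HPAA, 4-hydroxyphenylacetic acid, a metabolite made by gut microbes (n = 4). Surgery, catheter, pump and single housing were thus shared by both groups, and the comparison is between the 2 fluids in the pump. The methods describe young adult mice of both sexes, and the labels give no sex or age for these 8 libraries. The Y-linked genes Ddx3y (72.1 to 89.5 CPM, counts scaled to a common library total), Eif2s3y (43.7 to 52 CPM), Kdm5d (16.3 to 24.6 CPM) and Uty (14.2 to 16.9 CPM) were measured at similar levels in all 8, as in male liver. The RNA came from whole liver tissue, so fewer cells of a type and less RNA per cell cannot be told apart.

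NRF2, encoded by Nfe2l2, is kept low by KEAP1, an adaptor that presents it to a ubiquitin ligase for degradation. Oxidants and electrophiles modify KEAP1, after which NRF2 accumulates, pairs with a small MAF protein and binds antioxidant response elements near its target genes. In the liver those targets supply glutathione, couple it to reactive compounds, reduce peroxides and export the conjugates.

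The core of the antioxidant response element was searched as TGACNNNGC and as TGAGNNNGC on both strands of RefSeq promoter windows of GRCm38.p6, which run from 250 bases before to 50 bases after a transcription start. A window was found for 41 of the 48 genes, with 54 windows in all because some genes have several starts. Prdx6, Hmox1, Gclc, Abcc3, Gsr, Gstt2 and Gsta4 had no window and were not searched, nor was sequence outside the windows. TGACNNNGC was present in 12 of the 54 windows (22.2%), belonging to 11 genes, against 12.4% of all 32851 windows. TGAGNNNGC was present in 7 of the 54 windows (13%), against 17.6% of all windows. A match of letters is a description and does not show that NRF2 binds there. The full 9-letter forms TGACTCAGC and TGAGTCAGC, which were looked up after the matches had been seen, occur in 0.454% and 0.414% of all windows, and their letters TGACTCA and TGAGTCA are also those of the AP-1 site. Among the genes described here, TGAGTCAGC was present in the windows of Srxn1, Gstp1 and Gstp2, and TGACTCAGC in that of Prdx1. These are printed together with the matches of Nfe2l2 itself and of Gclm, which encodes a subunit of the enzyme that limits glutathione synthesis. The first 4 are genes whose highest value in both groups came from library 4 (described with their levels). Of other genes with that position, Nfe2l2 and Gstm7 had TGACNNNGC, while Gsta1, Gsta2, Gstm1, Gstm3, Gss, Gpx4, Gsto1 and Prdx3 had no match within their windows. Txnrd1, Mgst1, Gsta3, Sod1, Ugdh, Gclm and Abcc4 had TGACNNNGC without that position. Abcc4, Gstt1 and Slc7a11 had TGAGNNNGC without it, and Gsta4, which had the position, had no window. A link between the match and the position was not tested. The matched letters are in capitals, each stretch is written 5′ to 3′ on the strand that carries the match, and the position of the match counts from the transcription start.
Srxn1, chr2:152105467-152105499, plus strand, position -45: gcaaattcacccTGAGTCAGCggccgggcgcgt
Gstp1, chr19:4037966-4037998, minus strand, position -74: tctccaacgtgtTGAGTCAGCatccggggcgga
Gstp2, chr19:4042290-4042322, minus strand, position -89: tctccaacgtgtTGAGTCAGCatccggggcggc
Prdx1, chr4:116685454-116685486, minus strand, position -133: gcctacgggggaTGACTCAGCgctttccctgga
Gclm, chr3:122245411-122245443, minus strand, position -134: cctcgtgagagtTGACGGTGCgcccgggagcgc
Nfe2l2, chr2:75704883-75704913, minus strand, position -240: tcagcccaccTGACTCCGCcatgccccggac

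The total estimated count per library ranged from 29559978 to 30673398, so depth was similar throughout. Levels are given as CPM after TMM normalization, a scaling that corrects for library composition, and levels of different genes are compared only as TPM, which also divide by transcript length. Among cell type markers, all 5 hepatocyte markers were measured in every library, and their summed level ranged from 91079 to 122015 CPM. The libraries numbered 4 in each group stood apart from the other 6. Their summed level of 5 periportal hepatocyte markers was 6852 CPM (saline) and 5862 CPM (4-HPAA), against 4424 to 5147 CPM elsewhere, and that of 5 pericentral markers was 5825 and 6783 CPM, against 8498 to 9390 CPM elsewhere. The 5 red blood cell markers summed to 2560 CPM in saline library 2 and to 734 CPM in 4-HPAA library 4, against 152 to 376 CPM in the rest.

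The 48 genes covered a wide range of expression. Microsomal glutathione transferase Mgst1 had the highest level of them all at a mean of 3905 TPM (range 3624 to 4221 TPM over the 8 libraries). Glutathione peroxidase Gpx1 followed at 1817 TPM, glutathione transferase Gsta3 at 1509 TPM, catalase (Cat) at 1395 TPM and cytosolic superoxide dismutase Sod1 at 1359 TPM. From Gpx1 downwards each of these overlapped its neighbour over the 8 libraries (Gpx1 from 1556 to 2086 TPM, Gsta3 from 1351 to 1892 TPM, Cat from 1250 to 1513 TPM, Sod1 from 1198 to 1577 TPM), so neighbours in that order did not differ beyond their spread. At the other end, the export pump Abcc4 had a mean of 0.666 TPM, the carbonyl reductase Cbr3 0.675 TPM and the cystine importer Slc7a11 0.21 TPM. Nfe2l2 (30.5 TPM) and Keap1 (19.8 TPM) lay below most of the enzymes. Together the 48 genes held between 16107 and 17479 TPM in each library.

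**Figure D1:**
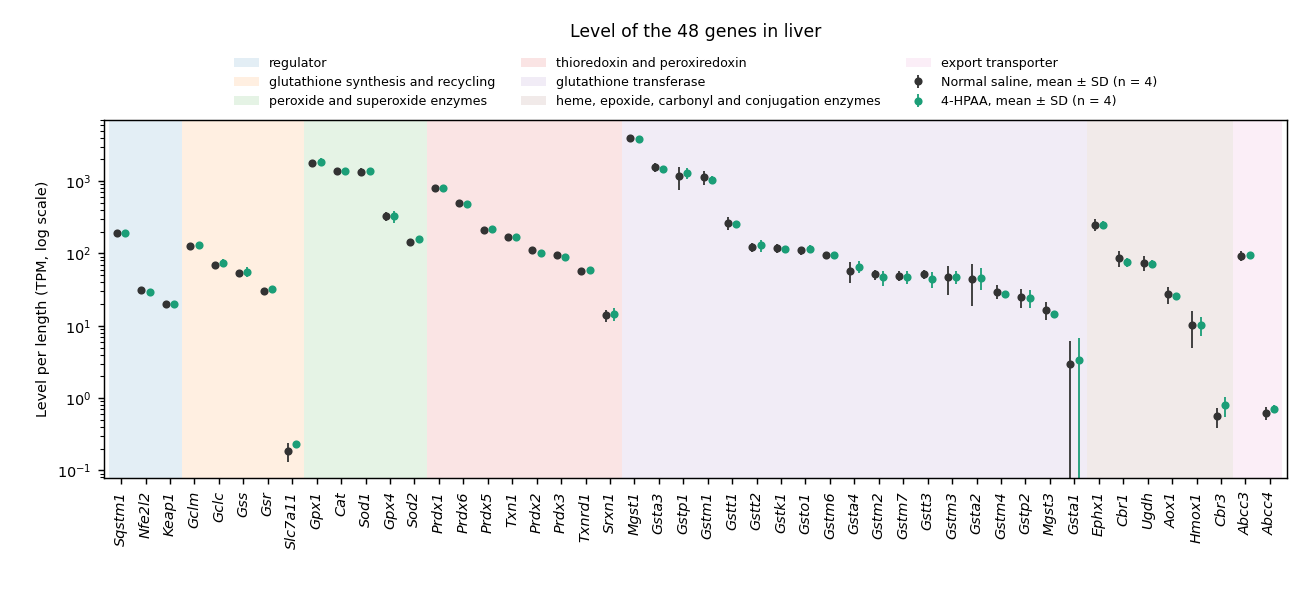
Mean level per length (TPM, log scale) of the 48 genes, ordered by role and level, with black points for normal saline and green points for 4-HPAA and bars for ± 1 SD (n = 4 mice each). The points of the 2 groups lie close together for nearly every gene, from Mgst1 at 3905 TPM down to Slc7a11 at 0.21 TPM, and the widest bars belong to Gsta1, whose SD exceeds its mean so that the lower bars leave the log axis.

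The comparison of 4-HPAA with normal saline asked whether the infused metabolite altered expression of these genes in the liver. Of the 48 genes, 46 reached 10 counts in each of the 8 libraries and entered the test, and 0 of these 46 passed an adjusted p of 0.05 (edgeR quasi-likelihood test, Benjamini-Hochberg adjustment over all 12883 genes tested, of which 0% passed). DESeq2 and limma-voom also called 0 of the 46, while over all genes DESeq2 called 2. At an unadjusted p under 0.05, 0 of the 46 genes were counted, against 1.75% of all genes tested (225 genes), and for 0 of the 46 did the 2 groups fail to overlap, against 1.2% of all genes tested. The estimate was higher with 4-HPAA for 25 genes and lower for 21. Log2 fold changes lay between -0.17 (Gstt3) and 0.23 (Abcc4), with a median of 0.020 against 0.001 over all genes. All 46 estimates were under 0.25 in size, and 44 were smaller than their own standard error. The summed level of the 48 genes was 16901 ± 614 TPM with saline and 16853 ± 297 TPM with 4-HPAA (SD, n = 4).

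The width of the intervals sets what these data could have missed. For 45 of the 46 genes the 95% interval of the fold change reached less than 1 from 0 on the log2 scale on either side, and for 34 it reached less than 0.5. Gsta1 was the exception to the wider limit, with an interval from -1.61 to 1.84. A change of 2-fold was thus outside the interval of 45 genes, while the intervals of the genes beyond those 34 reached 0.5 or further on at least a single side.

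**Figure D2:**
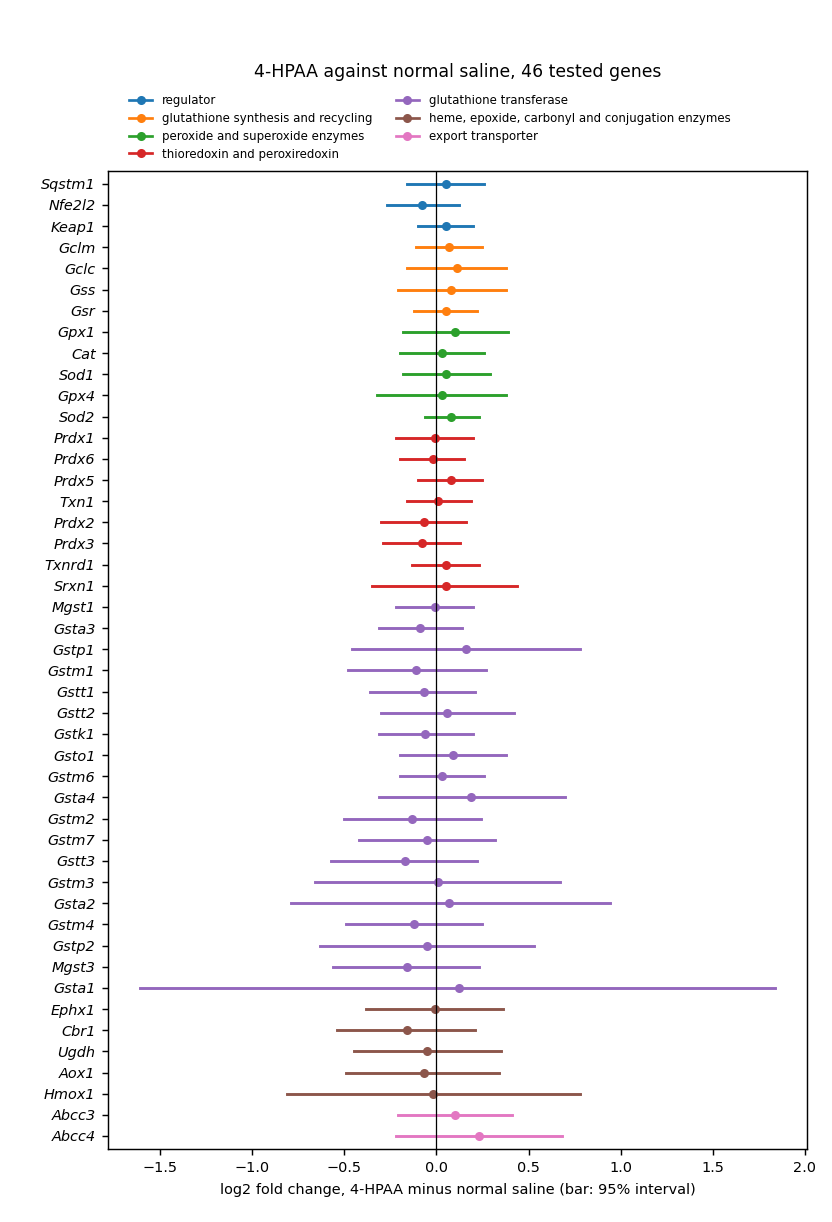
Log2 fold change of 4-HPAA over normal saline for the 46 tested genes (points, edgeR) with 95% intervals (bars), coloured by role. Every bar crosses 0, most are shorter than ± 0.5, and the longest bar is that of Gsta1, from -1.61 to 1.84.

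The regulators differed little between the groups. Nfe2l2 (chromosome 2, 75675513 to 75704641, minus strand), the gene of NRF2, was measured at 42, 44, 42.9 and 52.7 CPM in saline libraries 1 to 4 and at 42, 40.3, 44.2 and 45.5 CPM in 4-HPAA libraries 1 to 4. The groups overlapped, the highest value was that of saline library 4, and the log2 fold change was -0.08 (SE 0.09, edgeR adjusted p = 1.00). Keap1 (chromosome 9, 21229730 to 21239361, minus strand), its repressor, was at 35.9, 38.2, 36.6 and 40.4 CPM with saline and at 38.2, 38.4, 40.8 and 38.6 CPM with 4-HPAA. Keap1 had a coefficient of variation of 4.36% over the 8 libraries, which only Sod2 (4.1%) undercut among the 46 genes, and its log2 fold change of 0.05 (95% interval -0.10 to 0.20) overlapped 0. Sqstm1 encodes p62, an autophagy receptor that draws KEAP1 into aggregates, and averaged 231 ± 18.6 CPM with saline and 239 ± 23.8 CPM with 4-HPAA (SD, n = 4).

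Glutathione is built by glutamate-cysteine ligase, made of the catalytic subunit GCLC and the modifier GCLM, and by glutathione synthetase (Gss), and glutathione reductase (Gsr) returns its oxidized form to the reduced one. Gclc (chromosome 9, 77754535 to 77794485, plus strand) was at 125, 150, 148 and 159 CPM with saline and at 174, 161, 123 and 171 CPM with 4-HPAA. Both the lowest and the highest of the 8 values belonged to the 4-HPAA group, and the log2 fold change was 0.11 (SE 0.12, edgeR adjusted p = 1.00). Gclm (chromosome 3, 122245557 to 122270732, plus strand) was at 152, 180, 181 and 171 CPM with saline and at 182, 185, 165 and 183 CPM with 4-HPAA. Saline library 1 was the lowest, and 3 of the 4-HPAA libraries lay just above the highest saline library while 4-HPAA library 3 lay under 3 of the saline libraries. Gss was at 57.4, 66.3, 54.8 and 69.8 CPM with saline and at 73.4, 59.9, 52.3 and 77.8 CPM with 4-HPAA. Gsr was at 45.3, 52.7, 50.6 and 49.5 CPM with saline and at 49.1, 49.8, 50.6 and 55.8 CPM with 4-HPAA. The values of the groups were interleaved for both genes. The 4 tested genes of glutathione synthesis and recycling all had estimates above 0, from 0.05 (Gsr) to 0.11 (Gclc), and none passed.

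Slc7a11, which imports the cystine from which glutathione takes its cysteine, was close to the limit of detection. Its estimated counts were 13, 10, 13 and 6 with saline and 13, 13, 14 and 14 with 4-HPAA, so it missed the minimum of 10 counts in saline library 4 and was not tested. In CPM the saline values (0.206 to 0.426) lay under all 4-HPAA values (0.433 to 0.49). The gap between 0.426 and 0.433 CPM separates 2 libraries with 13 counts each. With the minimum lowered to 10 counts summed over the libraries, its log2 fold change was 0.39 (SE 0.30, edgeR adjusted p = 1.00).

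Superoxide dismutases turn superoxide into hydrogen peroxide, which catalase and the glutathione peroxidases remove. All 5 genes of this group had estimates above 0, from 0.03 to 0.10, and none passed. Sod2, the mitochondrial superoxide dismutase, had the smallest p of the 46 genes. It was at 184, 174, 190 and 184 CPM with saline and at 196, 189, 199 and 190 CPM with 4-HPAA. Saline library 3 lay within the 4-HPAA values and the other saline libraries below them, and the log2 fold change was 0.08 (SE 0.07, edgeR, unadjusted p = 0.241, adjusted p = 1.00). Of its 31-base stretches, 22.5% also occur in other genes, mostly in Rps6ka2 (20.1%). Sod1 was at 609, 541, 483 and 527 CPM with saline and at 549, 505, 540 and 646 CPM with 4-HPAA. Saline library 1 and 4-HPAA library 4 were the highest, and the groups overlapped. Catalase was at 2011, 2252, 2402 and 2179 CPM with saline and at 2491, 2338, 2145 and 2059 CPM with 4-HPAA. Its groups overlapped over most of their range, with a log2 fold change of 0.03 (SE 0.10). Gpx1, the cytosolic glutathione peroxidase, was at 856, 1115, 1069 and 1057 CPM with saline and at 1231, 948, 1248 and 976 CPM with 4-HPAA. The 4-HPAA libraries split into 2 above and 2 within the saline values. Gpx4, which reduces lipid peroxides in membranes, averaged 187 ± 27.7 CPM with saline and 192 ± 40.9 CPM with 4-HPAA, and 38.9% of its 31-base stretches occur in other genes, nearly all in the pseudogene Gpx4-ps2.

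Thioredoxin (Txn1) passes electrons from NADPH, by way of thioredoxin reductase, to the peroxiredoxins, and sulfiredoxin (Srxn1) restores peroxiredoxins that have been overoxidized. Estimates were above 0 for 4 of these 8 genes and below 0 for the other 4, between -0.08 and 0.08. Txnrd1, the cytosolic thioredoxin reductase and an NRF2 target, was at 93.5, 111, 115 and 114 CPM with saline and at 108, 112, 113 and 117 CPM with 4-HPAA. Apart from saline library 1, the lowest, the values of both groups lay in a narrow range, and the log2 fold change was 0.05 (95% interval -0.13 to 0.23). Srxn1 (chromosome 2, 152105516 to 152111376, plus strand) was at 19.3, 23.6, 21.3 and 30.4 CPM with saline and at 20.6, 20.5, 24.3 and 32.4 CPM with 4-HPAA. The library numbered 4 was the highest of each group, and the difference between those libraries and the other 6 was larger than that between the groups (log2 fold change 0.05, SE 0.18). Mitochondrial Prdx3 was at 84.4, 87.9, 81.5 and 95 CPM with saline and at 82, 81.2, 71.5 and 94.7 CPM with 4-HPAA (log2 fold change -0.08, SE 0.09). Prdx5, found in mitochondria and peroxisomes, was at 142, 150, 138 and 142 CPM with saline and at 157, 137, 144 and 165 CPM with 4-HPAA (log2 fold change 0.08, SE 0.08). For both genes the 4-HPAA group spread more widely than the saline group and the groups overlapped. Txn1, Prdx1, Prdx2 and Prdx6 had log2 fold changes of 0.01, -0.01, -0.07 and -0.02.

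The glutathione transferases attach glutathione to electrophiles, in the cytosol as alpha (Gsta), mu (Gstm), pi (Gstp), theta (Gstt) and omega (Gsto) classes, in mitochondria and peroxisomes as kappa (Gstk1) and in membranes as Mgst. Of these 19 genes, 8 had estimates above 0 and 11 below 0, with a median of -0.051, and none passed. Their median coefficient of variation within a group, 17.7% with saline and 19.4% with 4-HPAA, was above that of all genes tested (11.3% and 12.3%). Mgst1 was at 1942, 2330, 2214 and 2012 CPM with saline and at 2195, 2080, 2165 and 1988 CPM with 4-HPAA. Gsta3 was at 1278, 1074, 1005 and 1001 CPM with saline and at 1066, 974, 1068 and 993 CPM with 4-HPAA. The groups of both abundant enzymes differed by less than the standard error, with log2 fold changes of -0.01 (SE 0.10) and -0.09 (SE 0.10). Gstt3 was at 54.8, 48.4, 49.6 and 40 CPM with saline and at 50.3, 42.8, 50.1 and 27.6 CPM with 4-HPAA. Its log2 fold change of -0.17 (SE 0.18, edgeR adjusted p = 1.00) was the lowest of the 46 genes, and the library numbered 4 was the lowest of each group. Without 4-HPAA library 4 the log2 fold change was -0.02, and without any other single library it lay between -0.26 and -0.11. Mgst3 was at 15, 10.1, 8.4 and 10.7 CPM with saline and at 10.6, 8.67, 8.74 and 11.5 CPM with 4-HPAA. Saline library 1 was above the other 7, and the log2 fold change was -0.16 (SE 0.18).

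Several transferases showed large differences between mice of the same group. Gsta1 (chromosome 9, 78230656 to 78242684, plus strand) was at 0.705, 0.926, 0.59 and 4.16 CPM with saline and at 0.663, 1.37, 0.55 and 4.34 CPM with 4-HPAA. In each group library 4 was far above the other 3 libraries, and the highest of the 8 libraries was 7.89 times the lowest, while the group means, 1.59 ± 1.71 and 1.73 ± 1.78 CPM (SD, n = 4), were nearly equal. Gsta2 (chromosome 9, 78331018 to 78355788, minus strand) was at 11.1, 18.3, 19.9 and 42.9 CPM with saline and at 29.4, 17.8, 15.8 and 34.1 CPM with 4-HPAA. Here too library 4 was the highest of each group and saline library 1 the lowest of all. Gstm1 (chromosome 3, 108012255 to 108017973, minus strand), the main mu class enzyme, was at 731, 915, 711 and 1145 CPM with saline and at 837, 720, 713 and 981 CPM with 4-HPAA. The same libraries were highest, and the log2 fold change was -0.11 (SE 0.17). Gstp1 (chromosome 19, 4035407 to 4037985, minus strand), the pi class enzyme, was at 266, 696, 650 and 733 CPM with saline and at 582, 573, 626 and 844 CPM with 4-HPAA. Saline library 1 lay far below the other 7 libraries, which ranged from 573 to 844 CPM, and 4-HPAA library 4 was the highest. The log2 fold change of Gstp1 was 0.16 (SE 0.28). Gstp2, at 4.97 to 10.6 CPM with saline and 5.63 to 10.2 CPM with 4-HPAA, Gsta4, at 24.7 to 51.2 CPM and 31.4 to 48.9 CPM, and Gstm3, at 22.5 to 55.5 CPM and 30.2 to 47.1 CPM, also had library 4 as the highest of each group. Gsta4 was the only gene of the 46 with an unadjusted p under 0.05 after a library was left out. Its log2 fold change was 0.19 (SE 0.23, edgeR adjusted p = 1.00), and without saline library 4 it was 0.45 (unadjusted p = 0.0314, adjusted p = 1.00). In that fit 1 of the 47 listed genes tested had an unadjusted edgeR p under 0.05, against 262 of all 12939 genes tested. The library left out held the highest saline value of Gsta4 (51.2 CPM). The log2 fold changes of the others were -0.13 for Gstm2, -0.12 for Gstm4, 0.03 for Gstm6, -0.05 for Gstm7, -0.07 for Gstt1, 0.06 for Gstt2, -0.06 for Gstk1 and 0.09 for Gsto1.

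**Figure D3:**
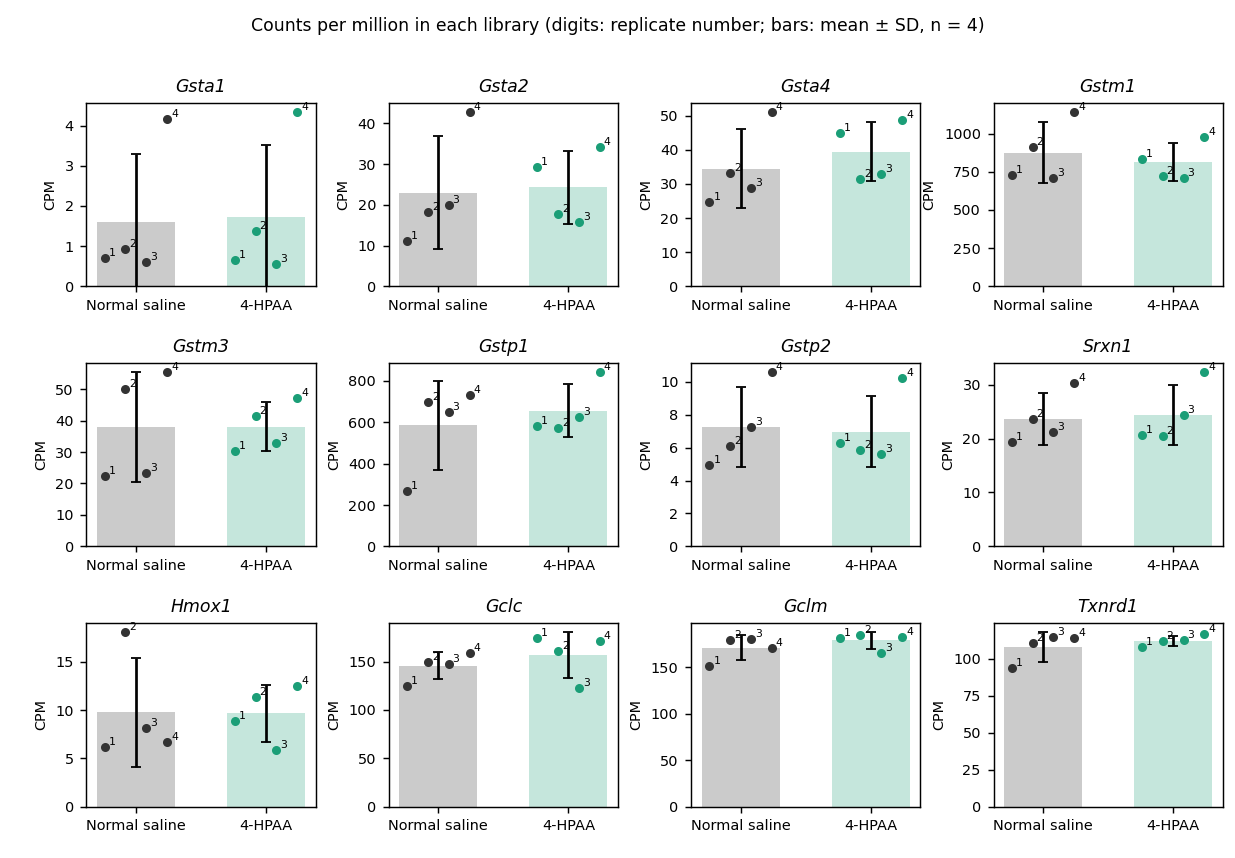
Level (CPM) of 12 genes in each of the 8 libraries (points, with the replicate number), with bars for the mean and whiskers for ± 1 SD (n = 4 per group). In the panels of Gsta1, Gsta2, Gsta4, Gstm1, Gstm3, Gstp1, Gstp2 and Srxn1 the library numbered 4 is the highest of both groups, while Gclc, Gclm and Txnrd1 stay within a narrow range, and Hmox1 is highest in saline library 2 at 18.1 CPM.

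Reads from near-identical transferases cannot always be told apart, and kallisto divides such reads among the transcripts they match. Of the 31-base stretches in Gsta1 transcripts, 92.9% also occur in another gene, with 80.3% in Gm3776 alone, and the shares were 60.7% for Gsta2, 60.3% for Gstp2, 38.5% for Gstp1, 37.7% for Gstm3 and 28.8% for Gstm1. For 13 of the 48 genes, among them Nfe2l2, Keap1, Gclc, Gsr, Txnrd1, Hmox1 and Cat, the share was 0%. Levels of Gsta1, Gsta2, Gstp2 and Gstp1 are therefore uncertain as single genes, and sums over close relatives remove the division among the genes summed but not that with other genes, such as Gm3776 for Gsta1, Gm8834 for Gstm3 (24.7% shared) and Gstm2-ps1 for Gstm1 (22.6% shared). Gsta1 with Gsta2 gave 11.8, 19.2, 20.5 and 47.1 CPM with saline and 30, 19.2, 16.3 and 38.5 CPM with 4-HPAA. Library 4 was also the highest of each group in this sum, and the log2 fold change was 0.08 (SE 0.40, edgeR adjusted p = 1.00). With Gm3776 added it was 0.09 (SE 0.43). The pi sum (Gstp1, Gstp2 and Gstp3, the last outside the 48 genes) had a log2 fold change of 0.16 (SE 0.27). The mu sum (the listed Gstm genes, without Gstm5) was at -0.09 (SE 0.16) and the theta sum (the listed Gstt genes) at -0.05 (SE 0.11). These sums also did not pass (edgeR adjusted p = 1.00 for each).

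**Figure D4:**
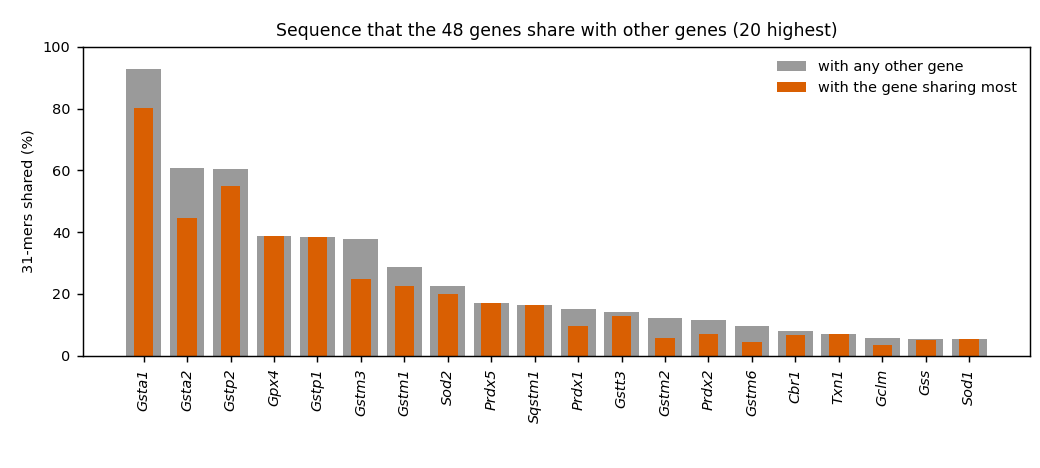
Share of a gene's 31-base stretches that also occur in any other gene (grey bars) and in the single gene that shares most with it (orange bars), in percent, for the 20 genes with the highest shares. Gsta1 stands highest at 92.9%, followed by Gsta2 at 60.7% and Gstp2 at 60.3%.

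Heme oxygenase, epoxide hydrolase, carbonyl reductases, aldehyde oxidase and UDP-glucose dehydrogenase complete the enzymes. The 5 tested genes of this group all had estimates below 0, from -0.16 to -0.01, and none passed. Hmox1, which breaks down heme and is induced by oxidants and by free heme, was at 6.19, 18.1, 8.14 and 6.66 CPM with saline and at 8.9, 11.4, 5.86 and 12.5 CPM with 4-HPAA. The 2 highest values were those of saline library 2 and 4-HPAA library 4, the libraries with the highest red blood cell markers (2560 and 734 CPM). Close behind, 4-HPAA library 2 was at 11.4 CPM of Hmox1 with these markers at 163 CPM. In saline library 1, Hmox1 was at 6.19 CPM with these markers at 376 CPM. Among these markers Alas2, unlike the globin genes, did not set 4-HPAA library 4 apart (97 CPM, against 97.1 CPM in 4-HPAA library 2). The part of these markers in the Hmox1 level was not tested. The log2 fold change of Hmox1 was -0.02 (95% interval -0.81 to 0.78), and without saline library 2 it was 0.47. Cbr1, a carbonyl reductase, was at 84, 56.9, 49.1 and 71.1 CPM with saline and at 56.7, 49.1, 56.4 and 71 CPM with 4-HPAA. Saline library 1 was the highest, and the log2 fold change was -0.16 (SE 0.17, edgeR adjusted p = 1.00). Ephx1, Aox1 and Ugdh had log2 fold changes of -0.01, -0.07 and -0.05, and saline library 1 was the lowest of the 8 libraries for each of them. Cbr3, the other carbonyl reductase, had estimated counts of 13, 15, 7 and 12 with saline and 12, 21, 13 and 20 with 4-HPAA. It missed the minimum in saline library 3, its groups overlapped, and under the lowered minimum its log2 fold change was 0.51 (SE 0.34, edgeR adjusted p = 1.00).

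The export pumps carry glutathione and other conjugates out of the hepatocyte towards the blood. Abcc4 had the highest estimate of the 46 genes. It was at 1.96, 1.54, 2.46 and 1.96 CPM with saline and at 2.58, 2.7, 2.3 and 1.71 CPM with 4-HPAA. The 2 highest values were 4-HPAA libraries and the groups overlapped, with a log2 fold change of 0.23 (95% interval -0.22 to 0.68, edgeR adjusted p = 1.00). Abcc3 was at 186, 262, 239 and 261 CPM with saline and at 289, 279, 205 and 244 CPM with 4-HPAA. Saline library 1 was the lowest and the log2 fold change was 0.10 (SE 0.14).

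Differences between mice were larger than differences between groups, and many of the 46 genes shared them. Library 4 was the highest of both groups for 15 of the 46 genes (32.6%), against 12.3% of all genes tested. These were Nfe2l2, Gss, Gpx4, Prdx1, Prdx3, Srxn1 and the transferases Gsta1, Gsta2, Gsta4, Gstm1, Gstm3, Gstm7, Gsto1, Gstp1 and Gstp2. The same position was held by library 1 for 3 genes, by library 2 for 1 gene and by library 3 for 1 gene. Saline library 1 was the lowest saline library for 26 of the 46 genes (56.5%), against 25.7% of all genes tested. The genes share their libraries and are not independent, so these shares are descriptions. In the same libraries numbered 4, the summed periportal markers were high and the summed pericentral markers low, as given above. Sds, Gls2 and Ass1 were highest, and Glul, Cyp2e1, Cyp1a2 and Slc1a2 lowest, in library 4 of each group. Other markers did not follow their sum. In 4-HPAA library 4, Hal was lowest of its group (288 CPM) and Cyp2f2 (1013 CPM) was below 4-HPAA library 1 (1353 CPM). Oat in saline library 4 (573 CPM) was above saline library 1 (345 CPM). The 6 Kupffer cell markers summed to 73.6 CPM (saline) and 65.8 CPM (4-HPAA), against 86.3 to 246 CPM elsewhere. The 5 sinusoidal endothelium markers summed to 88.7 and 87.8 CPM there, against 113 to 146 CPM elsewhere. The 5 stellate cell markers summed to 84.8 and 98.2 CPM, against 115 to 174 CPM. Stab2, Clec4g, Kdr, Pecam1, Lrat, Dcn and Reln were lowest in library 4 of each group. Lyve1 was instead highest of the 4-HPAA group in library 4 (15.5 CPM), and Col1a1 was lowest of the saline group in library 3 (1.77 CPM). The Kupffer cell markers were lowest in library 4 of each group except Marco. Marco was lowest in library 1 of each group (2.82 CPM with saline and 1.96 CPM with 4-HPAA). The summed hepatocyte markers were highest in the libraries numbered 4 (122015 and 121737 CPM against 91079 to 108613 CPM), and most of that sum was Alb (100791 and 96894 CPM). Apoa1 and Tat were higher in saline library 1 (11054 and 3461 CPM) than in saline library 4 (9502 and 3139 CPM). Cyp2a4, a gene used as a marker of female liver, was at 275 and 32.3 CPM against 0.558 to 28.2 CPM elsewhere. The part of these markers in the pattern was not tested. With both libraries numbered 4 left out, 47 of the 48 genes could be tested. Of these, 0 had an unadjusted edgeR p under 0.05, against 242 of all 13088 genes tested. At that share, 0 among 47 genes does not set the listed genes apart. Log2 fold changes of the 47 genes ran from -0.31 to 0.35. Gsta4, the listed gene closest to that threshold, was at 0.33 (SE 0.16). Without both libraries numbered 4, Gsta1 was at 0.21 (SE 0.38), Gsta2 at 0.35 (SE 0.28), Gstp1 at 0.14 (SE 0.31) and Srxn1 at 0.03 (SE 0.11). The coefficient of variation over the 8 libraries had a median of 14.2% for the 46 genes and 12.2% for all genes tested, and the highest library was more than 2 times the lowest for 8 of the 46 (17.4%) against 19% of all genes.

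**Figure D5:**
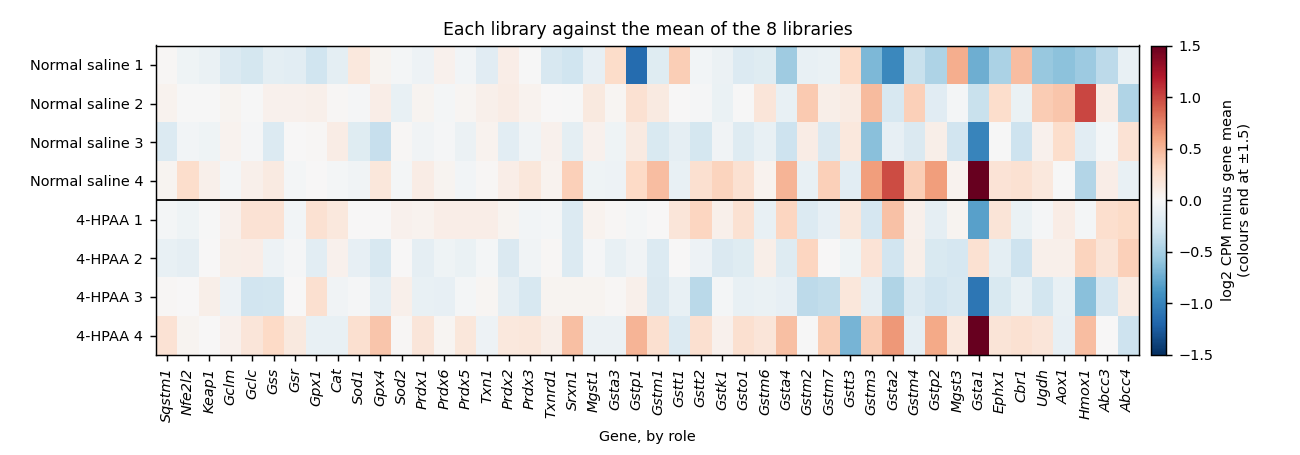
Log2 CPM of each of the 46 tested genes (columns, by role) in each library (rows) after subtraction of the gene's mean over the 8 libraries, with red for above and blue for below and colours that end at ± 1.5. The rows of saline 4 and 4-HPAA 4 are red over many transferases, the row of saline 1 is blue over many genes, and 0 of the 46 columns passed the test between the rows above and below the line.

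Single transcripts of the 48 genes were tested because a gene's sum can hide a switch between its transcripts. Of the 222 transcripts, 128 had enough counts, and 0 passed the adjusted threshold (edgeR). At an unadjusted p under 0.05 there were 5 (3.91%), against 3.83% of all 25533 transcripts tested, and 2 of these were higher and 3 lower with 4-HPAA. The groups did not overlap for 3 transcripts (2.34%), against 2.02% of all. The smallest p belonged to a 600-base transcript of Gstt3, ENSMUST00000174649, with estimated counts of 75.5, 79, 48.4 and 59 with saline and 34.2, 38.8, 17.2 and 29.7 with 4-HPAA. All 4 values with 4-HPAA were below all values with saline, and the log2 fold change was -1.09 (SE 0.30, edgeR, unadjusted p = 0.00456, adjusted p = 1.00). Next was a Txnrd1 transcript, ENSMUST00000219911, at 52.4, 51.9, 48.1 and 41.3 counts with saline and 35.4, 24, 37.9 and 25.2 counts with 4-HPAA (log2 fold change -0.63, SE 0.22, adjusted p = 1.00). The groups again did not overlap. A Sod2 transcript, ENSMUST00000233333, averaged 444 ± 60.6 counts with saline and 570 ± 82.5 counts with 4-HPAA (log2 fold change 0.39, SE 0.13, unadjusted p = 0.0167, adjusted p = 1.00).

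A wider list of 59 further genes of the pathway was measured, covering NRF2 partners, NADPH supply, other NRF2 targets, glutathione precursors and turnover, and further thiol enzymes. Of these, 55 were tested, 0 passed (0% of all genes tested passed), and 0 had an unadjusted p under 0.05 (edgeR), against 1.75% of all genes tested. Estimates were higher with 4-HPAA for 32 and lower for 23, with a median of 0.018. Nqo1, the quinone reductase often used as a readout of NRF2, was at 3.82, 4.19, 3.38 and 5.63 CPM with saline and at 4.85, 3.23, 3.2 and 4.97 CPM with 4-HPAA. Library 4 was again the highest of each group, and the log2 fold change was -0.07 (SE 0.21). Gpx3, a secreted glutathione peroxidase, had the smallest p of this list. It was at 4.17, 4.01, 2.3 and 1.41 CPM with saline and at 1.75, 2.17, 2.56 and 1.26 CPM with 4-HPAA, which overlap (log2 fold change -0.62, SE 0.35, unadjusted p = 0.105). Osgin1, a growth inhibitor induced by oxidative stress, was at 35, 50.7, 79.7 and 69.5 CPM with saline and at 132, 61.4, 72.8 and 59.6 CPM with 4-HPAA. Only 4-HPAA library 1 lay above the saline values, and the log2 fold change was 0.47 (SE 0.30, unadjusted p = 0.15). Mafg, a small MAF partner of NRF2, Fth1, the ferritin heavy chain, and Nfe2l1, which encodes the related factor NRF1, had log2 fold changes of 0.16 (SE 0.10), 0.15 (SE 0.10) and 0.11 (SE 0.08).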

How the data were processed

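Liver mRNA libraries of 8 mice (4 per group, grouped by their titles) were sequenced as paired-end reads. The authors ran kallisto, which shares each read among the transcripts it could come from, and deposited an unnormalized estimated count per transcript and mouse (9.358% of values above 0 were whole). The submitters' processing notes name FastQC 0.11.9 and GRCm38.p6. Transcripts of 48 genes, chosen with earlier results of these data known, as were the wider list and the markers, were summed per gene by GENCODE M21 (GRCm38) together with all other genes and rounded to whole numbers. Of 119414 transcripts, 2686 matched no gene and were left out (0.703% to 1.06% of counts). The test, run on genes that reached 10 counts in all libraries, was that of edgeR 4.0.16 in R 4.3.3 (TMM, quasi-likelihood F test, Benjamini-Hochberg adjustment, threshold 0.05). The standard error of a log2 fold change was taken as its size over the root of F. TPM were computed from the estimated counts and transcript lengths.

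Other settings tried were limma-voom of limma 3.58.1, DESeq2 1.42.0, RLE and total count scaling, other count minimums, each library left out, the replicate number as a block, the most abundant transcript and sums over paralogs. A sum with Gm3776 and the removal of both libraries numbered 4 were chosen after seeing the data. All genes are accounted for, and values per library are given for the regulators, glutathione synthesis, chosen NRF2 targets, the 10 smallest p-values and the 5 highest levels. In the wider list Nqo1 and the 5 smallest p-values are named, and of the transcripts the 3 smallest. Genes named for a library's position or shared sequence were chosen after their values were seen. Gsta5 of the wider list was not analysed here. Nothing states how mice were assigned to replicate numbers, and p-values measure the spread between these 8 samples. At totals from 29559978 to 30673398 counts, counting error adds to the spread between mice for genes and transcripts with few counts, such as Abcc4 (45 to 81 counts). The scripts were tested on simulated data. Figures were drawn with matplotlib 3.10.9 in Python 3.11.15.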

Additional observations from a re-analysis of the deposited data

Results flagged for a closer look

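Each group of 4 libraries was examined for a highest or lowest library that stood apart from the other 3 (its gap to the nearest library, as a share of the range of the group, was above Dixon's 95% critical value). The search covered the 48 genes, the summed cell type markers and the other values reported. Of 138 groups, 12 were found, where chance alone gives about 1 in 20, or 6.9. These groups are not independent, since sums over paralogs repeat the values of their genes. No explanation was tested for any of them.

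Among the 48 genes, Gsta1 was at 4.16 CPM in saline library 4, the next being 0.926 CPM, and Gstk1 was at 84 CPM in the same library, the next being 64.4 CPM. Gstp2 was at 10.2 CPM in 4-HPAA library 4, against 6.25 CPM in the next. Hmox1 was at 18.1 CPM in saline library 2, against 8.14 CPM in the next. On the low side, Gclm was at 165 CPM in 4-HPAA library 3, the next being 182 CPM. Prdx2 (82.5 CPM, next 98.9 CPM) and Sqstm1 (203 CPM, next 237 CPM) were both low in saline library 3.

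Among the marker sums, the red blood cell genes reached 2560 CPM in saline library 2 (next 376 CPM) and 734 CPM in 4-HPAA library 4 (next 163 CPM). The periportal genes reached 6852 CPM in saline library 4 (next 4540 CPM), the bile duct genes 45.5 CPM in saline library 1 (next 27.1 CPM) and the genes higher in female liver 38.2 CPM in 4-HPAA library 4 (next 10.6 CPM).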

How the results depend on the processing

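None of the 46 tested genes passed under any of the alternatives run, with a smallest adjusted p of 0.999, and of 748 alternative values 675 kept the direction. The estimate turned for 29 genes under some alternative and for 17 under none, so the directions of single genes are not settled by these data. Over all genes DESeq2 called 2 against 0 with edgeR, and without a single library the count ranged from 0 to 1, the 1 arising without 4-HPAA library 1. The median log2 fold change of the genes stayed between -0.040 and 0.058 without a single library.

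Without a single library, log2 fold changes ranged from -0.11 to 0.00 for Nfe2l2, -0.02 to 0.09 for Sqstm1, -0.01 to 0.18 for Gss, -0.13 to 0.11 for Gpx4, -0.02 to 0.07 for Cat, -0.03 to 0.12 for Sod1, -0.04 to 0.04 for Txn1, -0.01 to 0.08 for Txnrd1, -0.08 to 0.03 for Prdx1, -0.06 to 0.01 for Prdx6 and -0.12 to 0.19 for Srxn1. Among the transferases the ranges were -0.89 to 1.22 for Gsta1, -0.16 to 0.56 for Gsta2, -0.22 to 0.05 for Gstm1, -0.18 to 0.25 for Gstm3, -0.04 to 0.10 for Gstm6, -0.21 to 0.07 for Gstm7, -0.08 to 0.29 for Gstp1, -0.30 to 0.19 for Gstp2, -0.14 to 0.05 for Gstt1, -0.04 to 0.18 for Gstt2, -0.10 to 0.06 for Gstk1, -0.05 to 0.03 for Mgst1 and -0.27 to 0.02 for Mgst3. Without a change of sign, the estimate still moved from -0.26 to -0.02 for Gstt3, -0.13 to -0.00 for Gsta3, 0.04 to 0.21 for Gclc, -0.28 to -0.02 for Cbr1, 0.06 to 0.45 for Gsta4 and 0.13 to 0.35 for Abcc4. The ranges were -0.18 to 0.47 for Hmox1, -0.14 to 0.08 for Ephx1, -0.24 to 0.06 for Aox1 and -0.21 to 0.08 for Ugdh. Sums over paralogs ranged from -0.18 to 0.61 (Gsta1 with Gsta2), -0.08 to 0.30 (pi sum), -0.20 to 0.05 (mu sum) and -0.14 to 0.03 (theta sum). With Gm3776 added, the sum of Gsta1 with Gsta2 was 0.09.

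With all libraries kept, the direction turned for 8 genes. Taking the most abundant transcript gave -0.06 for Keap1, -0.13 for Txnrd1 and -0.05 for Gstt2, which was also -0.05 in the theta sum. For Gstm3 and Gstm6 the mu sum, which is mostly Gstm1, was -0.09, and for Gstp2 the pi sum, which is mostly Gstp1, was 0.16. With limma-voom Hmox1 was at 0.07 and Ephx1 at 0.00. With the replicate number as a block, Hmox1 was at 0.06, Ephx1 at 0.00 and the median of the genes at 0.029, and 336 genes had an unadjusted p under 0.05 against 225 without it, with 0 passing in either fit. Same-numbered libraries deviated from their group means with correlations of 0.0408, 0.155, 0.29 and 0.5, and saline library 3 resembled 4-HPAA library 2 (0.499) more than its own number, so the numbers were not taken to pair the mice.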
